A study of Mus musculus with 4 samples.

Results

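CTLA-4, CD28 and 8 further coreceptors of the immunoglobulin superfamily were followed through the transcripts of sorted mouse regulatory T cells. The 10 genes were Ctla4, Cd28, Icos, Pdcd1, Tigit, Lag3, Cd2, Cd226, Cd96 and Btla, chosen by name and matched by Ensembl gene ID, 10 of 10, among the 52636 gene IDs of the deposited counts. The cells were sorted as CD4+CD62L+CD25bright from C57BL/6 mice aged 7 weeks. By its label, Vav1R63WThemis1-T-/- (2 libraries, replicates 2 and 3) stands for mice that carry the Vav1R63W allele and lack Themis1 in T cells. Vav1R63W libraries (2 libraries, replicates 2 and 3) came from mice with the same Vav1 allele and intact Themis1. All 4 libraries therefore carry altered Vav1, a guanine nucleotide exchange factor and adaptor of T cell receptor signalling, and no library with unaltered Vav1 was analysed here. The promoter driving the T cell deletion and any pooling of mice are not given in the sources used here. The labels do not say that replicates were separate animals, so a p-value here sets a difference against sample-to-sample spread that may be technical alone.

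A T cell needs a signal from its antigen receptor and a second signal from coreceptors. CD28 supplies the classical costimulus after binding CD80 or CD86 on antigen-presenting cells, and CTLA-4 binds the same ligands with higher affinity and restrains the response. Regulatory T cells hold CTLA-4 as a standing part of their programme and use it to strip CD80 and CD86 from presenting cells. A similar contest takes place around CD155, where CD226 costimulates while TIGIT and CD96 compete for the ligand. PD-1, LAG-3 and BTLA are inhibitory receptors, ICOS is a costimulatory relative of CD28 that sustains effector regulatory T cells, and CD2 is an adhesion receptor that in mice binds CD48.

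Cd28 (ENSMUSG00000026012), Ctla4 (ENSMUSG00000026011) and Icos (ENSMUSG00000026009) lie beside each other on the plus strand of chromosome 1, at 60716800 to 60773359, 60887000 to 60915832 and 60977927 to 61000320 in GRCm38 (GENCODE M21). The gap is 114 kb between Cd28 and Ctla4 and 62.1 kb between Ctla4 and Icos. Pdcd1 (ENSMUSG00000026285), which encodes PD-1, is on the minus strand of the same chromosome at 94038305 to 94052553. Tigit (ENSMUSG00000071552), Btla (ENSMUSG00000052013) and Cd96 (ENSMUSG00000022657) are on chromosome 16. Lag3 (ENSMUSG00000030124) is on chromosome 6 and Cd2 (ENSMUSG00000027863) on chromosome 3. Cd226 (ENSMUSG00000034028) lies apart from the others. All 10 are protein-coding genes, and none shares exonic bases with another annotated gene. For 38 of the 40 values (10 genes in 4 libraries) the reads of both strand columns summed exactly to the unstranded count used here. Reads were spread evenly over the strands, with 45.9% to 54.4% in the first strand column wherever a gene had at least 100 reads.

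Start site windows from RefSeq (GRCm38.p6) were at hand for 5 of the 10 genes, and the 250 bases before the start are shown for Ctla4, which had the smallest p of the 8 tested genes between genotypes, and for Pdcd1, which varied most between replicates of both genotypes among these 8. Capitals mark TTTCC, the reverse complement of the core GGAAA bound by NFAT, a calcium-activated transcription factor of T cells.
Ctla4, chr1:60908775-60909024, plus strand: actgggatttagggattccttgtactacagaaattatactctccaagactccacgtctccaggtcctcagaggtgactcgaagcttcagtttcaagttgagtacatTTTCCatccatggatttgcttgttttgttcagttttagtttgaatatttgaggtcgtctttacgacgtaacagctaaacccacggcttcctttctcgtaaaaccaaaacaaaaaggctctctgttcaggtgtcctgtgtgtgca
Pdcd1, chr1:94052554-94052803, minus strand: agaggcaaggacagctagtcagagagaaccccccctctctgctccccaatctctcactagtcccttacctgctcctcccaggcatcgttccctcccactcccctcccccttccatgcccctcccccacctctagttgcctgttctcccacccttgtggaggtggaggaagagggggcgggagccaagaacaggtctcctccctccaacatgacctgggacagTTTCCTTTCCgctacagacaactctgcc
On either strand, GGAAA occurs 1 time in the Ctla4 window, with its distal base 144 bases before the start, and 2 times side by side in the Pdcd1 window, at 28 and 23 bases before the start. It occurs in 55.6% of the 32851 RefSeq windows of this length. The AP-1 pattern TGANTCA, searched on both strands and found in 6.75% of windows, has no match in these letters of Ctla4 or Pdcd1. These are matches of letters, with no binding measured. The Ctla4 window lies inside the GENCODE span of the gene, 60887000 to 60915832, as the RefSeq start used is downstream of the GENCODE start.

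The libraries held 15953194 and 13963670 reads assigned to genes in those labelled Vav1R63WThemis1-T-/-, replicates 2 and 3, and 14003757 and 14398002 in Vav1R63W replicates 2 and 3. Themis, the targeted gene, had 685 and 0 reads in the libraries labelled Vav1R63WThemis1-T-/-, replicates 2 and 3, against 283 and 97 in the Vav1R63W libraries. By its Themis reads, the library labelled Vav1R63WThemis1-T-/-, replicate 2, therefore goes against its label as far as gene counts can show. Differences are thus between labels and are also given without it, or as reads per library where a gene is near 0. Over tested genes its log2 CPM correlated (Pearson r) at 0.741 and 0.714 with Vav1R63W replicates 2 and 3, which correlated at 0.728 with each other. With the library labelled Vav1R63WThemis1-T-/-, replicate 3, its r was 0.661. That replicate 3 correlated at 0.666 and 0.650 with Vav1R63W replicates 2 and 3. The cause of these differences was not tested. The sorted population carried its defining markers: Foxp3 was at 1014 and 737 CPM (reads per 1000000 reads assigned to genes) in the libraries labelled Vav1R63WThemis1-T-/- and 904 and 636 CPM in Vav1R63W, and Il2ra, which encodes CD25, at 223 and 325 CPM in the libraries labelled Vav1R63WThemis1-T-/- and 310.0 and 274 CPM in Vav1R63W. Cd4 was at 193 and 241 CPM in the libraries labelled Vav1R63WThemis1-T-/- and 295 and 179 CPM in Vav1R63W. Of markers of other cells, all 8 myeloid genes, 5 of 8 B cell genes, 5 of 6 dendritic cell genes and 4 of 6 NK cell genes had no read in any library. The B cell markers with the highest means in the libraries labelled Vav1R63WThemis1-T-/-, against Vav1R63W, were Cd79b at 35.5 and 62.7 against 58.3 and 63.6 CPM and Cd79a at 2.38 and 0 against 9.64 and 5.35 CPM. Of the CD8 T cell markers Cd8a had no read, and Cd8b1 was at 30.3 and 19.3 CPM in the libraries labelled Vav1R63WThemis1-T-/- against 26.1 and 38.5 CPM in Vav1R63W. Zbtb46, the dendritic cell marker with reads, was at 14.1 and 0 CPM in the libraries labelled Vav1R63WThemis1-T-/- against 2.50 and 0 CPM in Vav1R63W. The NK cell markers with reads were Eomes and Tyrobp, at 1.57 and 0 CPM and at 0 and 15.4 CPM in the libraries labelled Vav1R63WThemis1-T-/-, against 11.9 and 1.18 CPM and 3.21 and 0 CPM in Vav1R63W.

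**Figure D1:**
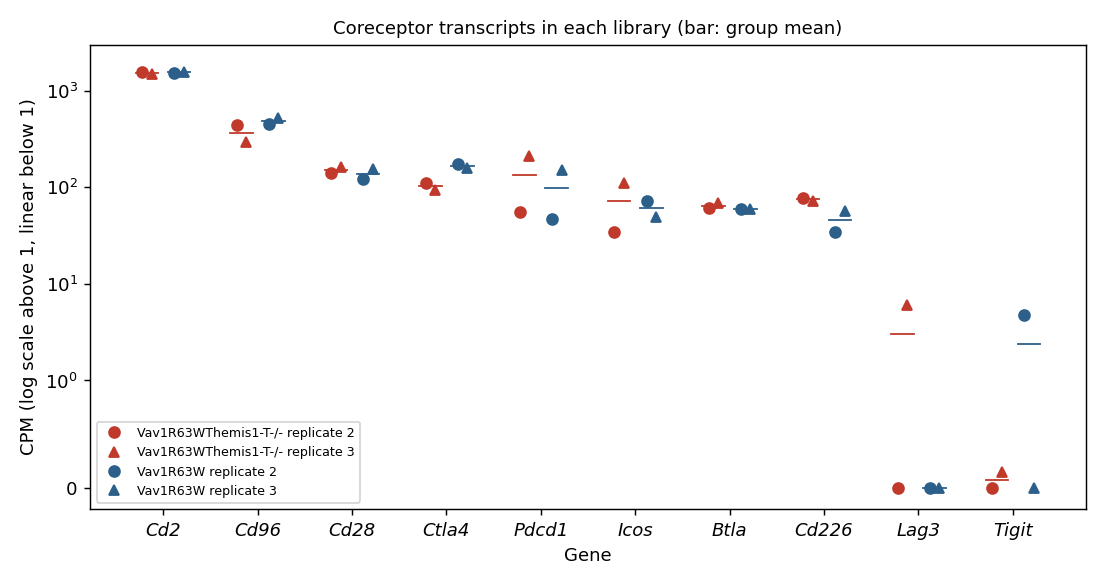
CPM of the 10 coreceptor genes in each library (vertical axis, log scale above 1 and linear below), with circles for replicate 2, triangles for replicate 3 and bars for group means of 2 libraries. Cd2 is highest in all 4 libraries, Pdcd1 is split by replicate in both genotypes, and Lag3 and Tigit are at or near 0 in 3 of 4 libraries each.

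The 10 transcripts spanned levels from the top of the tested genes to near absence. Per kilobase of annotated exon, Cd2 was the highest in every library, at 862 to 906 CPM per kb, and only 0.607% of the 10216 tested genes had a higher mean level. Cd96 came next at 135 to 238 CPM per kb. Pdcd1 (24.1 to 109 CPM per kb) and Ctla4 (39.9 to 74.2 CPM per kb) followed with overlapping ranges, and their order differed between libraries. Ctla4 exceeded Cd28 (19.9 to 26.7 CPM per kb) in all 4 libraries, so the transcript of the inhibitory receptor was the more abundant per length in each. The orders here rest on annotated exon lengths, such as 2330 bases for Ctla4 and 6122 for Cd28. Without division by length, Ctla4 was below Cd28 in both libraries labelled Vav1R63WThemis1-T-/-, at 112 and 93.0 against 140.0 and 163 CPM. In both Vav1R63W libraries Ctla4 was above Cd28, at 173 and 159.6 against 122 and 156 CPM. Icos (10.1 to 32.5 CPM per kb) changed places with Cd28 and with Btla (17.3 to 20.1 CPM per kb) between libraries. Cd28 was above Btla in all 4 libraries, though their ranges overlapped. Cd226 (7.07 to 15.8 CPM per kb) was below Btla in all 4 libraries. Tigit (0 to 5.21 CPM per kb) and Lag3 (0 to 2.89 CPM per kb) stood last, and their order cannot be told.

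**Figure D2:**
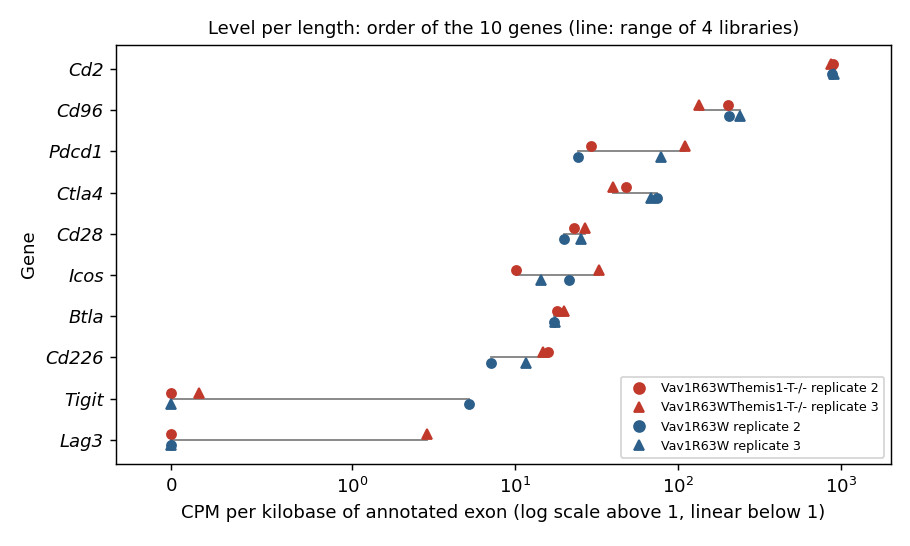
Level per length (horizontal axis, CPM per kilobase of annotated exon, log scale above 1 and linear below) for each gene, ordered by the mean of 4 libraries, with a line from the lowest to the highest library. Cd2 and Cd96 stand clear of the rest, and the ranges of Pdcd1 and Ctla4, and of Cd28, Icos and Btla, overlap.

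Between genotypes, 8 of the 10 genes were kept by the filter on low counts, and 0 of these passed (edgeR quasi-likelihood test, adjusted p under 0.05 over all tested genes), beside 0 of 10216 genes overall (0%). At an unadjusted edgeR p under 0.05 stood 1 of the 8, Ctla4, where 4.98% of all tested genes did. DESeq2 called 0 of the 10 genes and 1.92% of all genes with an adjusted p. limma-voom called 0 of the 8, with 1, Ctla4, at an unadjusted p under 0.05 (4.29% of all tested genes). The authors' deposited table called 0 of the 10, of which Lag3 and Tigit had no adjusted p there. It called 1.56% of its genes with an adjusted p. Of the 8 tested genes 5 had a positive and 3 a negative log2 fold change, with a median of 0.15 beside 0.0019 over all tested genes. The 2 groups did not overlap for 4 of the 8 genes, beside 33.8% of all tested genes: Btla and Cd226 were higher (15.1% of all genes) and Ctla4 and Cd96 lower (18.7%) in both libraries labelled Vav1R63WThemis1-T-/-. In bulk libraries such as these, fewer cells with a transcript and less of it per cell cannot be told apart.

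Ctla4, the inhibitory receptor of the CD28 family, was at 112 and 93.0 CPM in the libraries labelled Vav1R63WThemis1-T-/-, replicates 2 and 3, and at 173 and 159.6 CPM in Vav1R63W replicates 2 and 3. Both libraries labelled Vav1R63WThemis1-T-/- lay below both Vav1R63W libraries, and replicates differed by 1.2-fold in the libraries labelled Vav1R63WThemis1-T-/- and 1.08-fold in Vav1R63W. The log2 fold change was -0.68 ± 0.24 (SE) with a 95% interval of -1.33 to -0.02 (edgeR unadjusted p = 0.0458, adjusted p = 0.987), a level 0.626 times that of Vav1R63W. Without the library labelled Vav1R63WThemis1-T-/-, replicate 2, it was -0.79, and without replicate 3 it was -0.58. DESeq2 called Ctla4 when that replicate 2 was left out (adjusted p = 0.0133), beside 20.2% of all genes with an adjusted p. In the authors' deposited table Ctla4 had a log2 fold change of -0.62 with p = 0.00287 and adjusted p = 0.116, rank 194 by p among 15060 genes.

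Cd28, the costimulatory counterpart, was at 140.0 and 163 CPM in the libraries labelled Vav1R63WThemis1-T-/-, and at 122 and 156 CPM in Vav1R63W. The groups overlapped, and the log2 fold change was 0.15 ± 0.27 (SE), with a 95% interval of -0.59 to 0.89 (edgeR adjusted p = 1.000). It was 0.28 without the library labelled Vav1R63WThemis1-T-/-, replicate 2. The reads per kilobase of Ctla4 were 2.10 and 1.5 times those of Cd28 in the libraries labelled Vav1R63WThemis1-T-/-, replicates 2 and 3, and 3.73 and 2.70 times in Vav1R63W replicates 2 and 3. The ratio was thus smaller in both libraries labelled Vav1R63WThemis1-T-/- than in either Vav1R63W library. The mean log2 ratio was 0.82 ± 0.34 in the libraries labelled Vav1R63WThemis1-T-/- and 1.66 ± 0.33 in Vav1R63W (SD, n = 2 each, with 0.5 reads added), a difference of -0.84, with an exact two-sided permutation p of 0.333, the smallest that 2 against 2 libraries can give (0.50 adjusted over the 3 receptor pairs compared). Without the library labelled Vav1R63WThemis1-T-/-, replicate 2, the difference was -1.08.

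Icos, the costimulatory relative of CD28, was at 34.5 and 111 CPM in the libraries labelled Vav1R63WThemis1-T-/-, replicates 2 and 3, and at 72.9 and 49.3 CPM in Vav1R63W replicates 2 and 3. The libraries labelled Vav1R63WThemis1-T-/- were both the lowest and the highest, 3.23-fold apart, so the groups overlapped. The log2 fold change was 0.30 ± 0.70 (SE), with a 95% interval of -1.62 to 2.21 (edgeR adjusted p = 1.000). It was 0.91 without the library labelled Vav1R63WThemis1-T-/-, replicate 2, and -0.83 without replicate 3, so its sign depended on which of these was kept.

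Cd226, the costimulatory receptor for CD155, was at 77.3 and 72.9 CPM in the libraries labelled Vav1R63WThemis1-T-/-, replicates 2 and 3, and at 34.6 and 57.4 CPM in Vav1R63W replicates 2 and 3. Both libraries labelled Vav1R63WThemis1-T-/- lay above both Vav1R63W libraries, though the Vav1R63W replicates differed by 1.66-fold. The log2 fold change was 0.73 ± 0.46 (SE), with a 95% interval of -0.52 to 1.97 (edgeR unadjusted p = 0.185, adjusted p = 1.000). It was 0.70 without the library labelled Vav1R63WThemis1-T-/-, replicate 2, 1.17 without Vav1R63W replicate 3 and 0.38 without Vav1R63W replicate 2.

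Cd96, a competing receptor for the same ligand, was at 438 and 295 CPM in the libraries labelled Vav1R63WThemis1-T-/-, replicates 2 and 3, and at 449 and 520.4 CPM in Vav1R63W replicates 2 and 3. The groups did not overlap, but the library labelled Vav1R63WThemis1-T-/-, replicate 2, was close to Vav1R63W replicate 2. The log2 fold change was -0.39 ± 0.24 (SE), with a 95% interval of -1.03 to 0.26 (edgeR unadjusted p = 0.177, adjusted p = 1.000). It was -0.68 without the library labelled Vav1R63WThemis1-T-/-, replicate 2, and -0.15 without replicate 3. Per kilobase Cd96 exceeded Cd226 by 12.7 and 9.05 times in the libraries labelled Vav1R63WThemis1-T-/-, replicates 2 and 3, and by 29.1 and 20.3 times in Vav1R63W replicates 2 and 3. The mean log2 ratio was 3.42 ± 0.35 in the libraries labelled Vav1R63WThemis1-T-/- and 4.60 ± 0.37 in Vav1R63W (SD, n = 2 each), a difference of -1.18 with an exact permutation p of 0.333, again the smallest possible (0.50 adjusted over 3 pairs). Without the library labelled Vav1R63WThemis1-T-/-, replicate 2, that difference was -1.43.

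**Figure D3:**
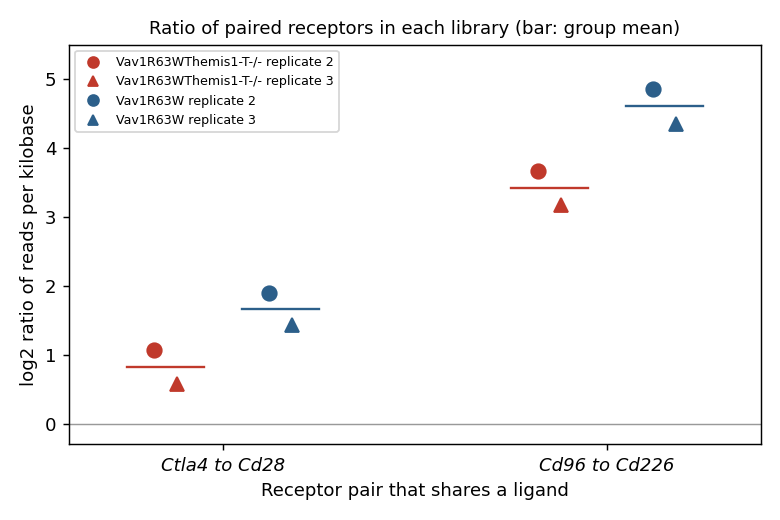
Log2 ratio of reads per kilobase (vertical axis) for 2 receptor pairs that share a ligand, in each library, with bars for group means. Both libraries labelled Vav1R63WThemis1-T-/- lie below both Vav1R63W libraries for Ctla4 to Cd28 (means 0.82 and 1.66) and for Cd96 to Cd226 (means 3.42 and 4.60).

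Tigit, the inhibitory receptor that competes with CD226, had 0 and 2 reads in the libraries labelled Vav1R63WThemis1-T-/-, replicates 2 and 3, and 67 and 0 reads in Vav1R63W replicates 2 and 3. The single library with reads held 4.78 CPM (exact 95% interval 3.71 to 6.08, counting error only), while 0 reads allow up to 0.188 CPM in the library labelled Vav1R63WThemis1-T-/-, replicate 2, and 0.208 CPM in Vav1R63W replicate 3 (a limit of 3 reads). Lag3, an inhibitory receptor for MHC class II, had 0 and 85 reads in the libraries labelled Vav1R63WThemis1-T-/-, replicates 2 and 3, or 6.09 CPM in replicate 3 (exact 95% interval 4.86 to 7.53), and 0 in both Vav1R63W libraries. Neither gene passed the filter on low counts, and no fold is given since the reads of each came almost wholly from 1 library. The log2 ratio of Tigit to Cd226, the third pair compared, differed by -3.20 with an exact permutation p of 0.667. Genes with over 50 reads in 1 library and at most 3 in each other library numbered 862 across the series, with 157 to 242 per library.

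Pdcd1, which encodes the inhibitory receptor PD-1, was at 56.1 and 211 CPM in the libraries labelled Vav1R63WThemis1-T-/-, replicates 2 and 3, and at 46.6 and 151 CPM in Vav1R63W replicates 2 and 3. The groups overlapped, and the library numbered 3 was the higher of both genotypes, by 3.76-fold and 3.23-fold. A difference of at least 3-fold in that direction in both genotypes occurred in 34 of the 5866 tested genes that averaged 20 CPM or more (0.58%), and in the other direction in 68, a count made after the values of Pdcd1 were seen. The log2 fold change between genotypes was 0.47 ± 0.91 (SE), with a 95% interval of -2.01 to 2.94 (edgeR adjusted p = 1.000). It was 1.13 without the library labelled Vav1R63WThemis1-T-/-, replicate 2, and -0.83 without replicate 3. Summed markers of dividing cells were at 15.4 and 113 CPM in the libraries labelled Vav1R63WThemis1-T-/- and 59.5 and 71.5 CPM in Vav1R63W, with Cdk1 and Ccnb1 highest on average. Cdk1 was at 0 and 32.9 CPM in the libraries labelled Vav1R63WThemis1-T-/- against 9.07 and 21.3 CPM in Vav1R63W, and Ccnb1 at 0.0627 and 19.98 CPM against 9.997 and 29.9 CPM in the same order. Members of this list did not vary together: Top2a had 101 and 684 reads in the libraries labelled Vav1R63WThemis1-T-/- and 5 and 0 in Vav1R63W, while Aurkb had 0 and 0 reads in the libraries labelled Vav1R63WThemis1-T-/- and 361 and 183 in Vav1R63W. Mki67 had 1 and 0 reads in the libraries labelled Vav1R63WThemis1-T-/- and 58 and 1 in Vav1R63W. Summed markers of effector regulatory T cells were at 545 and 595 CPM in the libraries labelled Vav1R63WThemis1-T-/- and 521 and 573 CPM in Vav1R63W, with Tnfrsf9 (330.2 and 310.2 CPM against 379.7 and 435 CPM in Vav1R63W) and Itgae (73.1 and 118 CPM against 77.6 and 42.0 CPM in Vav1R63W) highest on average. The similar sums held members that differed in opposite directions: Ccr8, a chemokine receptor, was at 90.3 and 87.9 CPM in the libraries labelled Vav1R63WThemis1-T-/- and 14.1 and 12.6 CPM in Vav1R63W (edgeR unadjusted p = 0.00286, adjusted p = 0.900), and the granzyme gene Gzmb was read 0 and 1 times in the libraries labelled Vav1R63WThemis1-T-/- and 100 and 217 in Vav1R63W (edgeR unadjusted p = 0.0311, adjusted p = 0.902). These 5 marker genes, Top2a to Gzmb, were named after their values were seen. The part of either marker list in these values was not tested.

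Btla, the inhibitory receptor for HVEM, was among the steadiest of the 10 genes, at 61.2 and 68.1 CPM in the libraries labelled Vav1R63WThemis1-T-/- and 58.9 and 60.0 CPM in Vav1R63W. The groups did not overlap, by a margin of about 1 CPM, and the log2 fold change was 0.15 ± 0.38 (SE), with a 95% interval of -0.87 to 1.17 (edgeR adjusted p = 1.000). Without the library labelled Vav1R63WThemis1-T-/-, replicate 2, it was 0.24. Cd2, the adhesion receptor, was at 1547 and 1501 CPM in the libraries labelled Vav1R63WThemis1-T-/- and 1532 and 1577 CPM in Vav1R63W. Its groups overlapped, its replicates differed by 1.03-fold in both, and its log2 fold change was -0.0040 ± 0.09 (SE), with the narrowest 95% interval of the 8 genes, -0.25 to 0.25 (edgeR adjusted p = 1.000). Without the library labelled Vav1R63WThemis1-T-/-, replicate 2, it was -0.01. A change of Cd2 beyond 1.19-fold in either direction therefore lay outside the interval, whereas for Pdcd1 and Icos the intervals reached 7.68-fold and 4.63-fold higher.

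**Figure D4:**
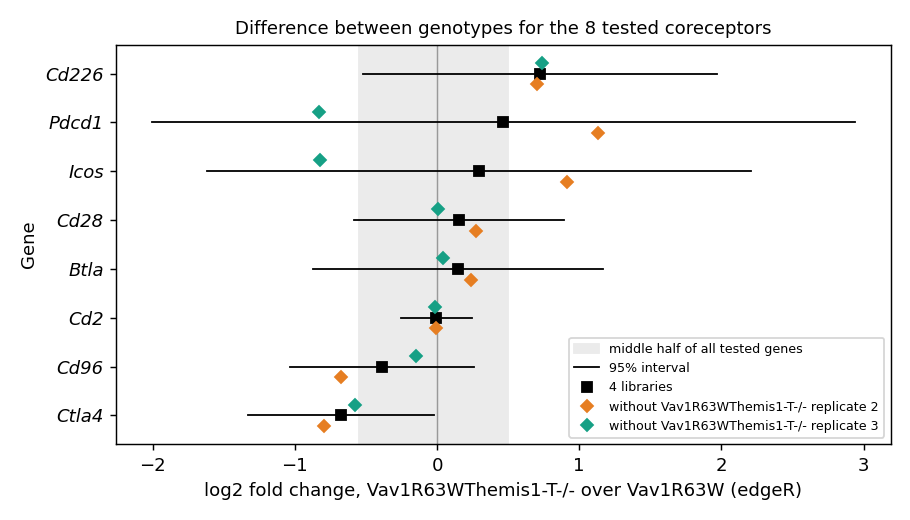
Log2 fold change of the 8 tested coreceptors (horizontal axis, Vav1R63WThemis1-T-/- over Vav1R63W), with 95% intervals as lines and the value without each library labelled Vav1R63WThemis1-T-/- as diamonds. Ctla4 has the single interval that excludes 0 before adjustment, and the diamonds of Pdcd1 and Icos fall on opposite sides of 0.

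The partners of these receptors were followed through 4 lists chosen from general knowledge. Of 14 ligand genes 8 were tested and 0 passed in either direction, with 5 positive and 3 negative log2 fold changes and a median of 0.56 beside 0.0019 over all tested genes. The ligand median turned to -0.59 without the library labelled Vav1R63WThemis1-T-/-, replicate 2 (3 positive and 5 negative), beside -0.20 over all genes tested in that fit. Cd86, a ligand of CD28 and CTLA-4, was at 39.6 and 31.3 CPM in the libraries labelled Vav1R63WThemis1-T-/- and 18.4 and 26.9 CPM in Vav1R63W (log2 0.66 ± 0.69 SE, and 0.51 without the library labelled Vav1R63WThemis1-T-/-, replicate 2). Tnfrsf14, which encodes the BTLA ligand HVEM, was at 2.38 and 1.00 CPM in the libraries labelled Vav1R63WThemis1-T-/- and 3.57 and 4.93 CPM in Vav1R63W (log2 -1.31 ± 1.48 SE, and -2.03 without that replicate 2). Another 4 ligand genes, Nectin1, Nectin3, Fgl1 and Clec4g, had no read in any library.

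Of 21 other immunoglobulin superfamily and SLAM receptors 16 were tested and 0 passed, with 3 positive and 13 negative log2 fold changes. Their median was -0.24, beside 0.0019 over all tested genes. Without the library labelled Vav1R63WThemis1-T-/-, replicate 2, their median was -0.29, beside -0.20 over all genes tested in that fit. Cd84, a SLAM family receptor, was at 128 and 110 CPM in the libraries labelled Vav1R63WThemis1-T-/- and 78.8 and 58.9 CPM in Vav1R63W, without overlap (log2 0.82 ± 0.32 SE, edgeR unadjusted p = 0.0561, and log2 0.72 without that replicate 2). Slamf7, a receptor of the same family, had 5 and 1 reads in the libraries labelled Vav1R63WThemis1-T-/- and 60 and 201 reads in Vav1R63W (edgeR unadjusted p = 0.0525). Havcr1, Havcr2, Cd244a, Crtam and Ceacam1 had no read in any library.

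Of 27 signalling genes downstream of CD28, ICOS and CD2, 25 were tested and 0 passed. At an unadjusted edgeR p under 0.05 stood 1 of the 25, where 4.98% of all tested genes did. Log2 fold changes were 13 positive and 12 negative, with a median of 0.19 beside 0.0019 over all tested genes. That median turned to -0.0076 without the library labelled Vav1R63WThemis1-T-/-, replicate 2, beside -0.20 over all genes tested in that fit. Mtor, the growth-control kinase below PI3K and Akt, had 0 and 1 reads in the libraries labelled Vav1R63WThemis1-T-/- and 178 and 181 reads in Vav1R63W. The ratio of summed counts, Vav1R63W over Vav1R63WThemis1-T-/- and scaled by library totals, was 378 (exact 95% interval 67.4 to 14977, counting error only). Mtor did not pass in edgeR (log2 -8.15, 95% interval -14.8 to -1.46, adjusted p = 0.900) and passed in DESeq2 (adjusted p = 0.0136). That was the single DESeq2 call among the 4 lists, beside 1.92% of all genes with an adjusted p.

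Of 18 genes for trafficking, shedding and phosphatases of the inhibitory receptors 17 were tested and 0 passed, with 9 positive and 8 negative log2 fold changes. Their median was 0.07, beside 0.0019 over all tested genes. Without the library labelled Vav1R63WThemis1-T-/-, replicate 2, their median was 0.11, beside -0.20 over all genes tested in that fit. Ptpn6, which encodes the phosphatase SHP-1, was at 179 and 152 CPM in the libraries labelled Vav1R63WThemis1-T-/- and 268 and 211 CPM in Vav1R63W (log2 -0.51 ± 0.22 SE, edgeR unadjusted p = 0.0742, and log2 -0.61 without that replicate 2). Ap1m1, a subunit of the adaptor complex that carries CTLA-4 from the Golgi, was at 318 and 287 CPM in the libraries labelled Vav1R63WThemis1-T-/- and 406 and 358 CPM in Vav1R63W (log2 -0.31 ± 0.15 SE, edgeR unadjusted p = 0.108, and log2 -0.37 without that replicate 2).

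**Figure D5:**
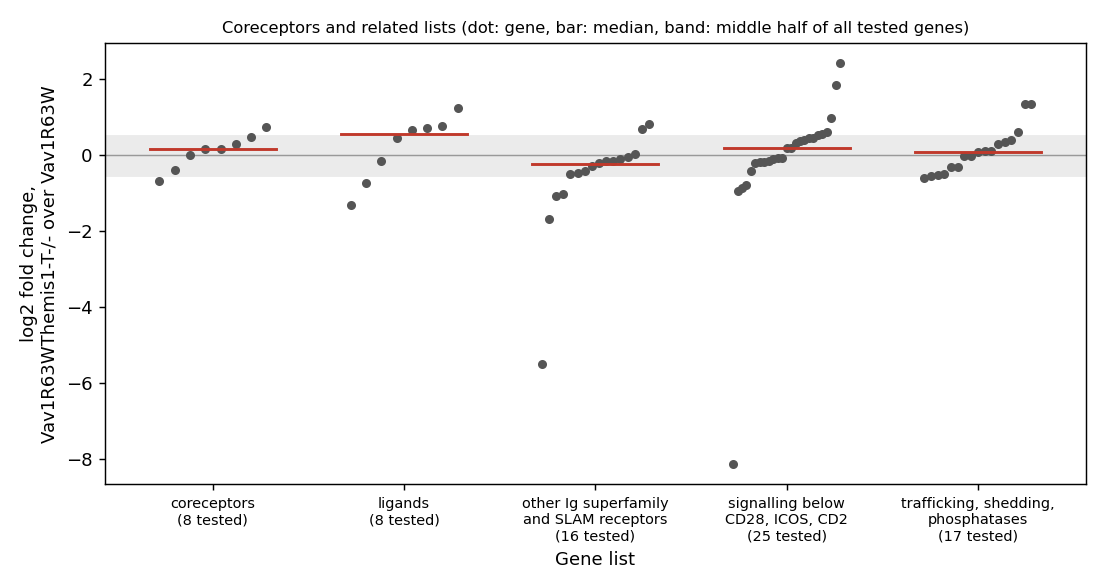
Log2 fold change (vertical axis, Vav1R63WThemis1-T-/- over Vav1R63W) of each tested gene in the coreceptors and 4 related lists, with bars for medians and a band between the quartiles of all tested genes, -0.55 to 0.50. List medians run from -0.24 to 0.56, and the lowest points, Mtor and Slamf7, have 1 and 6 reads in the libraries labelled Vav1R63WThemis1-T-/-.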

How the data were processed

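RNA of 4 libraries was measured by sequencing, and each library was assigned to its genotype from its title. FastQC, Trim Galore, STAR, MultiQC and DESeq2 are named, without versions, per the submitters' processing notes. Those notes name the build mm9, while the design text names Ensembl release 90. The deposited files hold raw counts per gene, unstranded and per strand, in the layout STAR writes, and the unstranded column matches the series table's raw columns gene by gene (52636 of 52636). That table also holds the authors' counts scaled by DESeq2 size factors and rounded (a score, not used here), fold changes as a linear ratio, log2 fold changes and p-values, per the file headers. Reads not assigned to a single gene, ambiguous and multimapping reads among them, were 21.1% to 23.1% per library and were left out. Symbols matched 52403 IDs. GENCODE M21 (GRCm38) gave exon lengths and coordinates by ID.

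CPM are reads per 1000000 gene reads. Genotypes were compared with edgeR 4.0.16 (R 4.3.3; TMM, filterByExpr with minimum count 10 and total 15, robust quasi-likelihood F test, two-sided, no block), with p adjusted by Benjamini-Hochberg over all tested genes and a threshold of 0.05. SE is the absolute log2 fold change over the square root of F. The scripts were tested on simulated data. Alternatives were DESeq2 1.42.0, limma-voom (limma 3.58.1), DESeq2 size factors, other filters, a replicate block, each strand column, 5 reads added to ratios and each library left out. Named genes are the 10 coreceptors, Themis, 4 regulatory T cell markers, the 2 members with the smallest p of each list and the 2 with the highest mean of each other marker list; other names were chosen after their values were seen. Some results that this rule names are not reported here. The members and lists were chosen with earlier results of these data known. Intervals and limits on reads cover counting error only.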

Additional observations from a re-analysis of the deposited data

How the results depend on the processing

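The all-gene count of 0 in edgeR stayed 0 under limma-voom, the other normalization, both other filters, each strand column and each library left out, and was 206 with DESeq2. With DESeq2 and each library left out, added after seeing the data, it ran from 414 to 2161: 628 without Vav1R63W replicate 2, 414 without Vav1R63W replicate 3, and 2161 and 881 without the libraries labelled Vav1R63WThemis1-T-/- replicates 2 and 3. The coreceptor count was 0 with DESeq2 on all 4 libraries and under each edgeR and limma-voom alternative, and ran from 0 to 2 with DESeq2 and a library left out: without the library labelled Vav1R63WThemis1-T-/-, replicate 2, DESeq2 called Ctla4 (log2 -0.79, adjusted p = 0.0133) and Cd96 (log2 -0.67, adjusted p = 0.00487), beside 20.2% of all genes. With 1 library in a group, that library is assumed to vary like the others.

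Of 96 coreceptor log2 fold changes under alternatives other than DESeq2 with a library left out, 88 kept their sign, 8 turned and 0 passed the test (smallest adjusted p = 0.481). With libraries left out, Cd28 ran from -0.038 to 0.37, Icos from -0.83 to 0.91, Pdcd1 from -0.83 to 1.58, with -0.16 without Vav1R63W replicate 2, and Cd2 from -0.053 to 0.040. Icos was -0.00041 with limma-voom, and Cd2 was 0.0010 with DESeq2 size factors and 0.02 in the first strand column. Ctla4, Cd226, Cd96 and Btla kept their sign throughout. The log2 ratio of Tigit to Cd226 differed by -3.20 between groups. With libraries left out, that difference ran from -7.13 without Vav1R63W replicate 3 to 0.72 without Vav1R63W replicate 2, the library with 67 Tigit reads. The cause of the turns in log2 fold change was not tested.

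By their labels, libraries of different genotypes share only a replicate number, and the labels do not say whether same-numbered libraries were prepared together. Same-numbered libraries had deviations correlated at r = 0.018 over 10216 genes, which cannot exclude pairing. With the replicate block 0 genes were called, Pdcd1 was 0.40 and Icos 0.07. Tigit and Lag3 were removed by the count filter when all 4 libraries were fitted, and the 2 libraries per group limit all tests. The list values without a library were added after seeing the data.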

Other observations

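The SLAM family, whose members were picked here after their values were seen, held genes of both signs. Ly9 was at 121 and 60.7 CPM in the libraries labelled Vav1R63WThemis1-T-/-, replicates 2 and 3, and at 241 and 133 CPM in Vav1R63W replicates 2 and 3, without overlap (log2 -1.02 ± 0.48 SE, edgeR unadjusted p = 0.0992, adjusted p = 1.000, and log2 -1.58 without the library labelled Vav1R63WThemis1-T-/-, replicate 2). Slamf1 was at 103 and 55.1 CPM in the libraries labelled Vav1R63WThemis1-T-/- and 111 and 83.5 CPM in Vav1R63W, and Slamf6 at 213 and 194 CPM in the libraries labelled Vav1R63WThemis1-T-/- and 293 and 173 CPM in Vav1R63W. Both overlapped between groups, while Cd84 was higher in both libraries labelled Vav1R63WThemis1-T-/-, as reported. Cd48, which encodes the ligand of CD2, was the most abundant ligand gene, at 747 and 497 CPM in the libraries labelled Vav1R63WThemis1-T-/- and 618 and 782 CPM in Vav1R63W, with overlapping groups (log2 -0.15 ± 0.25 SE, and -0.45 without that replicate 2).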
